A study of Mus musculus with 6 samples.

Results

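Condensins are the ring complexes that compact chromosomes for mitosis. The 8 genes described here encode all core subunits of both mammalian forms: the ATPases *Smc2* and *Smc4*, which both complexes share, the condensin I subunits *Ncapd2*, *Ncapg* and *Ncaph*, and the condensin II subunits *Ncapd3*, *Ncapg2* and *Ncaph2*. They were chosen by gene symbol, 8 of 31053 features, each with 1 feature in the count tables. In each complex the kleisin (*Ncaph* or *Ncaph2*) closes the ring of the ATPases and holds a pair of HEAT repeat subunits (*Ncapd2* with *Ncapg*, or *Ncapd3* with *Ncapg2*). Condensin II is nuclear throughout the cell cycle and starts chromosome compaction in prophase, whereas condensin I reaches chromosomes after the nuclear envelope breaks down. The germinal center (GC) holds some of the fastest dividing cells of the body, the centroblasts (CB). Beside them stand centrocytes (CC), the cells under selection, and the cells that exit become memory cells, plasmablasts (PB) or long-lived antibody-secreting plasma cells (PC).

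Single cell RNA-seq was available for 6 mouse libraries labelled as GC B-cells, 3 of the genotype *Smc3* wt/wt and 3 labelled as heterozygous (*Smc3* wt/-). All 6 carry Cgamma1-Cre, a recombinase switched on as B-cells start the GC reaction. *Smc3* encodes an ATPase of cohesin, a relative of condensin. Per the methods of the study, exon deletion removes 1 *Smc3* allele, and cells were sorted from spleens of mice immunized with sheep erythrocytes. Those methods name 3 *Smc3* wt/- mice and more *Smc3* wt/wt mice than the libraries analysed here. Which mice gave which library, and their ages, were not stated in the sources used here, so p-values measure only the spread between these libraries.

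The libraries held 5223325 to 35354257 unique molecular identifiers (UMIs), of which 4860 to 35276 per library fell on condensin genes in kept cells. After filtering, 20847 cells were kept, 1013 to 4971 per library, and pairs of libraries shared 4 to 43 barcodes. Cells were clustered without the condensin genes and named from marker genes with the ending "-like", and 15702 cells were GC B-like. The names were rebuilt from transcripts and may differ from those of the study. Replicate 2 labelled *Smc3* wt/- stood apart. Its share of immunoglobulin UMIs was 52.9%, where the other 5 had 2.43% to 3.93%, and its 472 GC B-like cells were low in GC markers (*Gcsam* 29.0 against 198 to 241 CPM, *Rgs13* 120 against 485 to 899 CPM). Y-linked genes were at 53.7 to 191 CPM in 3 libraries, *Smc3* wt/wt replicates 1, 2 and the same replicate 2 labelled *Smc3* wt/-, and at 0 to 0.0304 CPM in the other 3. Levels are UMI sums over the cells of a library, scaled to 1000000 UMIs outside immunoglobulin genes (CPM). In GC B-like cells *Smc3* itself was at 163, 164 and 154 CPM (*Smc3* wt/wt) and at 157, 117 and 171 CPM (labelled *Smc3* wt/-), each in the order of the replicates. These libraries count the 3′ ends of transcripts, and the deletion itself was not tested.

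The 8 genes lie on 8 chromosomes. In GRCm38, *Smc2* (ENSMUSG00000028312) spans chr4:52439243-52488260 and *Smc4* (ENSMUSG00000034349) spans chr3:69004738-69034623. Of condensin I, *Ncapd2* (ENSMUSG00000038252) lies at chr6:125168007-125191701, *Ncapg* (ENSMUSG00000015880) at chr5:45669919-45700546 and *Ncaph* (ENSMUSG00000034906) at chr2:127103809-127133954. Of condensin II, *Ncapd3* (ENSMUSG00000035024) lies at chr9:27030175-27095315, *Ncapg2* (ENSMUSG00000042029) at chr12:116405402-116463731 and *Ncaph2* (ENSMUSG00000008690) at chr15:89355719-89372826. *Ncapg* overlaps *Lcorl*, and *Ncaph2* overlaps *Sco2* and *Tymp*, on the other strand. Whether counting used the strand was not stated in the sources used here. In GC B-like cells called G1, *Lcorl* had a median of 12.2 CPM (highest library 16.0 CPM), beside 36.3 CPM for *Ncapg*, and *Sco2* had 11.7 CPM, beside 58.5 CPM for *Ncaph2*. In G2/M these neighbors had medians of 9.07 and 7.18 CPM, and *Tymp* had 0 CPM in both phases.

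Because all 8 subunits were higher in S and in G2/M than in G1 (below), their promoters are shown. The cell cycle genes homology region (CHR) is an element of promoters that are active in G2 and M. RefSeq promoters (GRCm38.p6) were on hand for 7 of the 8 members (*Smc4* had no entry). A CHR, written TTTGAA or TTCGAA on either strand, occurred within 250 bases before a listed start in 6 of them, and in 6 of their 8 listed promoters. It occurred in 17.1% of all 32851 promoters. The *Ncapd3* match was at the second of its listed starts only, and *Ncaph* had none in this window. The windows below give 12 bases on each side, 5′ to 3′ on the gene's strand, with the CHR in capitals. Distances are to the RefSeq starts, which differ from the gene spans given above. The *Ncapg2* window lies within its gene span and the *Ncapd2* window partly so.
Smc2, chr4:52439064-52439093, 145 bases before the start: tcgctttccatgTTCAAAacggtatagtct
Ncapd2, chr6:125191692-125191721, 123 bases before the start: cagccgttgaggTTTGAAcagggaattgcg
Ncapg, chr5:45669883-45669912, 30 bases before the start: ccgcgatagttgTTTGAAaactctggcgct
Ncapg2, chr12:116405406-116405435, 18 bases before the start: tacgcgggtgtgTTTGAAtctggtccgagc
Ncaph2, chr15:89355685-89355714, 22 bases before the start: cttctttacttcTTCGAAactgggcccgcc

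The *Smc2* match lies on the opposite strand. CCAAT boxes often stand beside a CHR, and one was found on either strand in 3 members (*Smc2*, *Ncapd2* and *Ncapg*) and in 33.8% of all promoters. A motif of E2F transcription factors was searched in the same windows. It was found in 3 members (*Ncapd2*, *Ncapg2* and, at its first listed start, *Ncapd3*) and in 7.89% of all promoters. These are matches of letters in a window and not measured binding sites.

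The first question was how condensin transcripts follow the cell cycle in GC B-like cells. Phases were called from S and G2/M gene lists from which the condensin genes had been removed. Calls were made at 2000 UMIs per cell and gave 3725 cells in G1, 4307 in S and 7039 in G2/M. All 8 subunits rose from G1 to S and were higher in G2/M than in G1 (edgeR's quasi-likelihood test with Benjamini-Hochberg adjustment over all genes). Of all genes tested, 29.4% were higher in S than in G1 and 29.5% were higher in G2/M than in G1.

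*Smc2*, the shared ATPase with the largest G2/M change of the 8 members, had a lowest, median and highest library of 19.7, 27.9 and 40.1 CPM in G1. It reached 179, 194 and 212 CPM in S and 240, 283 and 306 CPM in G2/M. No library overlapped between the phases. The G2/M level was 11.3-fold that of G1 (log2 change 3.50 ± 0.08 SE, adjusted p = 1.8e-25 by edgeR). *Smc4*, its partner in the ring, was already at 84.5, 102 and 150 CPM in G1 and rose to 403, 568 and 624 CPM in G2/M, which was 5.49-fold (log2 change 2.46 ± 0.07 SE, edgeR adjusted p = 3.04e-23).

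Of the condensin I subunits, *Ncapd2*, a HEAT repeat subunit, had a median of 10.9 CPM in G1, 61.7 CPM in S and 102 CPM in G2/M. *Ncapg*, the other HEAT repeat subunit, went from 36.3 to 99.8 and 146 CPM, and *Ncaph*, the kleisin, from 6.50 to 39.8 and 61.2 CPM. All 3 therefore had their highest median in G2/M. Their log2 changes from G1 to G2/M were 3.27, 2.06 and 3.19, with SEs of 0.08, 0.07 and 0.11 in the same order, and every library moved the same way. *Ncapg* in G1 was at 6.34 CPM (3 UMIs) in replicate 2 labelled *Smc3* wt/- and at 25.1 to 40.6 CPM in the other 5 libraries.

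The HEAT repeat subunits of condensin II followed another course after S. *Ncapd3*, a HEAT repeat subunit, had medians of 7.18, 43.6 and 43.6 CPM in G1, S and G2/M. *Ncapg2*, its HEAT repeat partner, had medians of 5.48, 56.4 and 47.5 CPM, so that its highest level was in S. *Ncaph2*, the kleisin, was the least phase-dependent member, with medians of 58.5, 116 and 125 CPM and a 2.18-fold difference between G2/M and G1 (log2 change 1.12 ± 0.06 SE, edgeR adjusted p = 1.02e-16).

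**Figure D1:**
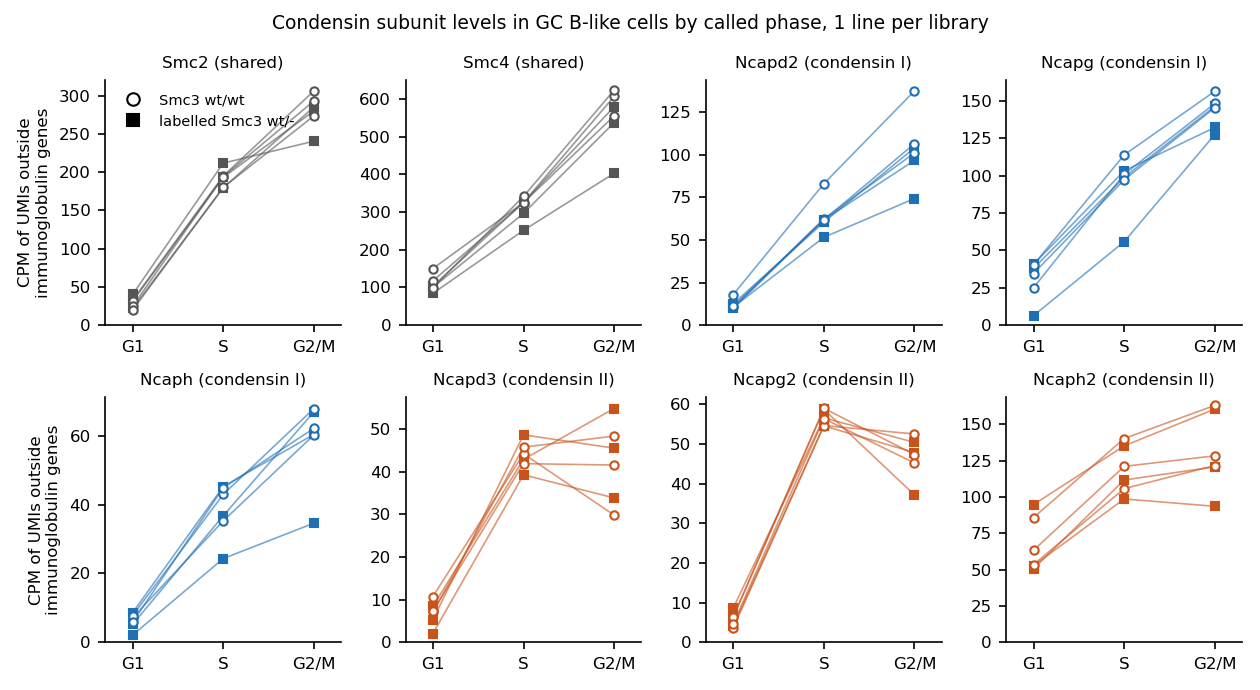
Levels of the 8 condensin subunits in GC B-like cells called G1, S and G2/M, on linear axes from 0 in CPM of UMIs outside immunoglobulin genes. Each line is 1 of 6 libraries (open circles *Smc3* wt/wt, filled squares labelled *Smc3* wt/-). The shared and condensin I genes climb again from S to G2/M, while *Ncapg2* is highest in S. The *Ncapd3* median is 43.6 CPM in both phases, with libraries moving both ways.

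The step from S to G2/M set *Ncapd3* and *Ncapg2* apart from the other 6 members, and this comparison was added after the values had been seen. In the fit over all genes, *Smc2*, *Smc4*, *Ncapd2*, *Ncapg*, *Ncaph* and *Ncaph2* rose further (6 of 8 members, where 21.0% of all genes did), by log2 changes of 0.59, 0.85, 0.73, 0.54, 0.60 and 0.16. *Ncapg2* fell by 0.25 on the log2 scale (SE 0.05, edgeR adjusted p = 5.3e-04), where 20.5% of all genes fell. *Ncapd3* did not pass the test (log2 change -0.04, 95% interval -0.17 to 0.08, edgeR adjusted p = 0.631).

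Within each library, the change from S to G2/M was then set against that of the paralogous subunit, on the log2(CPM + 1) scale. *Ncapd2* changed more than *Ncapd3* by 1.27, 0.61 and 0.79 for *Smc3* wt/wt replicates 1 to 3 and by 0.98, 0.17 and 0.73 for replicates 1 to 3 labelled *Smc3* wt/-. *Ncapg* changed more than *Ncapg2* by 0.61, 0.77 and 0.89 and by 0.54, 1.82 and 0.73 in the same order. The difference for *Ncaph* against *Ncaph2* was smaller and even, 0.54, 0.45 and 0.38 and 0.60, 0.57 and 0.30. All 3 pairs thus differed in the same direction in 6 of 6 libraries (without integration, *Ncapd2* against *Ncapd3* in 5 of 6), with means of 0.76 ± 0.37, 0.89 ± 0.47 and 0.47 ± 0.12 (SD, n = 6). The exact two-sided sign-flip p was 0.03125 for each pair (0.03125 adjusted over 3 pairs), the smallest that 6 libraries allow, and since the comparison was chosen on these values it is a description.

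From G1 to G2/M, the comparison that had been planned, only the kleisins came near the threshold. *Ncaph* changed more than *Ncaph2* by 2.14 ± 0.50 (SD, n = 6) in 6 of 6 libraries (exact sign-flip p = 0.03125, adjusted over 3 pairs 0.0938). With a pseudocount of 10 this difference was 1.19, and it and the *Ncapd2* pair (0.71) passed (exact sign-flip p = 0.0469 adjusted over 3 pairs, for each). *Ncapd2* against *Ncapd3* (0.45 ± 0.68, SD, n = 6, exact p = 0.156) and *Ncapg* against *Ncapg2* (-0.52 ± 1.17, SD, n = 6, exact p = 0.312) did not pass. The *Ncapg* pair was positive in replicate 2 labelled *Smc3* wt/- alone, at 1.75. Without that library its mean was -0.97 (0 of 5 positive) and without replicate 1 labelled *Smc3* wt/- it was -0.31, while the *Ncapd2* pair was at 0.24 without *Smc3* wt/wt replicate 1.

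**Figure D2:**
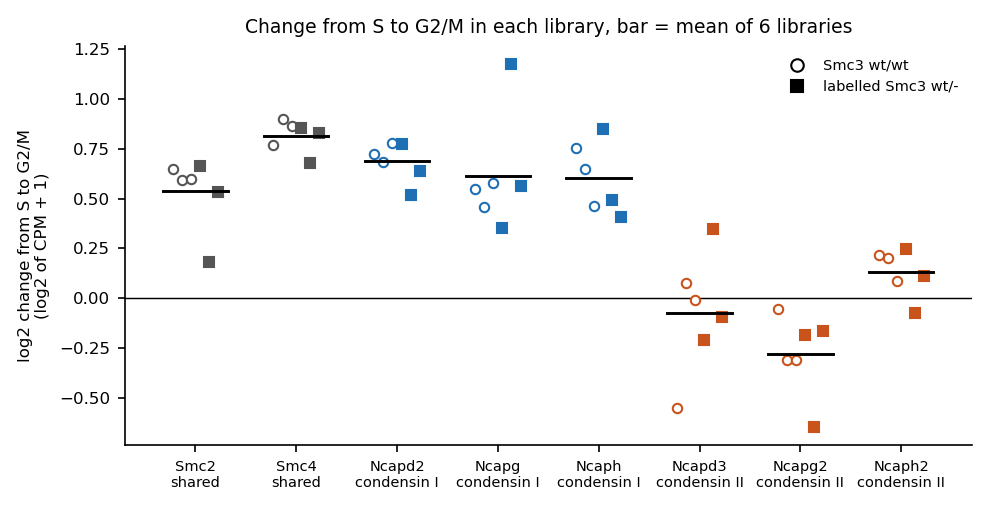
Log2 change from S to G2/M of each subunit in GC B-like cells on the log2(CPM + 1) scale, 1 point per library (open circles *Smc3* wt/wt, filled squares labelled *Smc3* wt/-), with the mean of 6 libraries as a bar. Shared and condensin I genes lie above 0 in every library, *Ncapg2* lies below 0 in every library, and *Ncapd3* spreads on both sides.

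Genes that act with condensin gave a scale for these changes. The list of 14 held DNA topoisomerases, the mitotic kinases and their partners, and other chromosome proteins. All 14 were higher in G2/M than in G1, with a median log2 change of 3.88, beside 2.89 for the condensin genes and -0.01 over all genes. *Top2a*, the topoisomerase that untangles sister chromatids, rose by 4.21 on the log2 scale and *Plk1*, a mitotic kinase, by 6.16. The 5 cohesin core genes were also all higher, by 0.43 (*Stag2*) to 1.89 (*Rad21*), with a median of 1.11. Of 6 SMC5/6 genes, which encode the third complex of this family, 5 were higher, and *Nsmce3* did not pass (log2 change -0.12, edgeR adjusted p = 0.239). From S to G2/M, 13 of the 14 partner genes rose further and *Akap8* fell by 0.20, 2 of 5 cohesin genes rose and none fell, and 1 of 6 SMC5/6 genes rose and 3 fell.

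The clusters of GC B-like cells resolved the G2/M cells further. Since clusters are made from the same cells, their values are a description. The cluster led by *Mxd3* and *Nusap1* (cluster 2, 3173 cells, 84.8% called G2/M) had the highest median of all 8 genes among the 7 larger GC B-like clusters. Histone genes and *Rrm2*, which serve DNA replication, were also among its 10 leading genes, and 11.6% of its cells were called S. The cluster led by *Ube2c* and *Cenpf* (cluster 8, 932 cells, 99.8% called G2/M) and that led by *Cdc20* and *Ccnb2* (cluster 5, 1515 cells, 85.5% called G2/M) carry the CB-like name.

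Between clusters 2 and 8 the HEAT repeat subunits of condensin II stood apart from the other 6 members. *Ncapd3* had a lowest, median and highest library of 50.9, 68.4 and 83.3 CPM in cluster 2 and of 10.8, 24.0 and 34.9 CPM in cluster 8. *Ncapg2* was at 64.8, 75.1 and 78.0 CPM in cluster 2 and at 13.9, 24.0 and 42.4 CPM in cluster 8. For both genes no library of cluster 8 reached the lowest of cluster 2. The share of all genes that separate so between these clusters was not counted. The condensin I genes overlapped between the same clusters, with medians of 133 and 121 CPM for *Ncapd2*, 182 and 155 CPM for *Ncapg* and 94.3 and 76.4 CPM for *Ncaph*. The shared ATPases overlapped as well, at 374 and 329 CPM for *Smc2* and 757 and 708 CPM for *Smc4*, and so did *Ncaph2*, at 158 and 136 CPM.

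In cluster 5 most members were lower again. *Ncaph* had a median of 11.8 CPM, *Ncapd3* 10.8 CPM and *Ncapg2* 7.89 CPM, against 5.87, 6.69 and 4.96 CPM in the CC-like cluster led by *Pxdc1* (cluster 0). *Ncapd2* kept a median of 74.1 CPM and *Ncaph2* of 103 CPM, against 10.8 and 54.0 CPM in cluster 0.

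**Figure D3:**
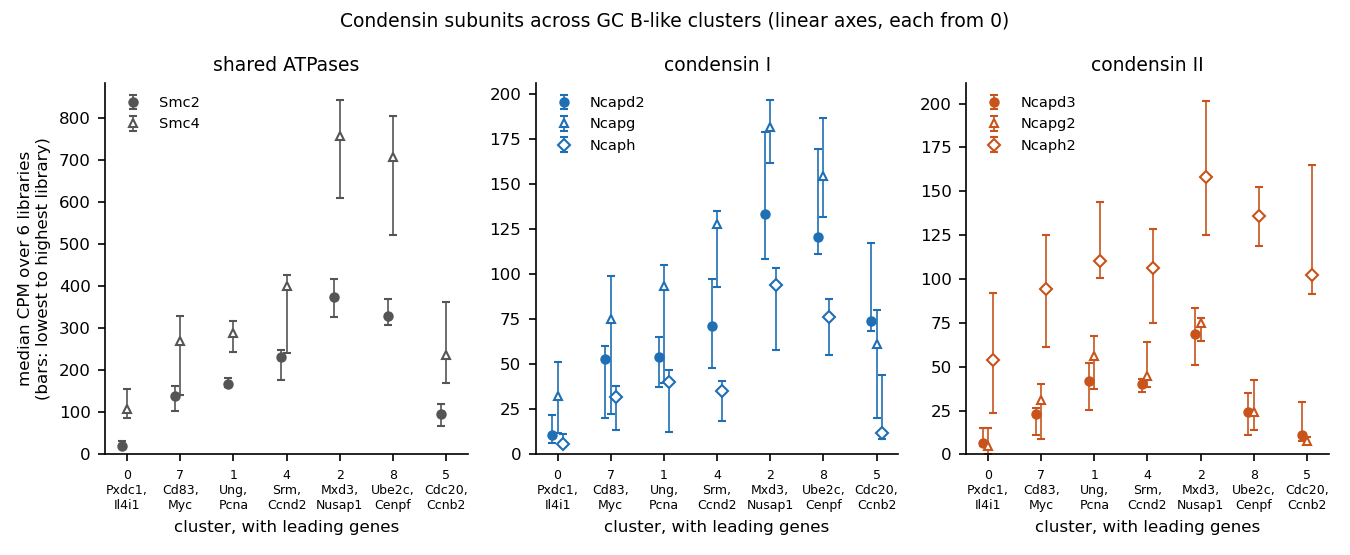
Median CPM of the condensin subunits over 6 libraries in 7 GC B-like clusters, named by number and leading genes, with bars from the lowest to the highest library and linear axes from 0. *Ncapd3* and *Ncapg2* are at 24.0 CPM in cluster 8, where the shared and condensin I genes remain near their cluster 2 levels.

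CB-like cells (clusters 5 and 8) were next compared with CC-like cells (clusters 0 and 7). Of the 8 members, 7 were higher in CB-like cells (23.2% of all genes were), by log2 changes from 0.39 (*Ncapd3*) to 1.95 (*Ncapd2*). The states also differed in phase, with 2226 of 2447 CB-like cells called G2/M, whereas 74.6% of cluster 0 was called G1 and 8.19% G2/M and 42.5% of cluster 7 was called G1 and 27.4% G2/M, so this comparison is not separate from that of the phases. *Ncapg2* did not pass (0.12, 95% interval -0.14 to 0.38, edgeR adjusted p = 0.454). These calls depend on which cells carry the name. Without integration, at a resolution of 1, or with doublets kept, the cells led by *Ube2c* and *Cenpf* mostly stayed unnamed and 3, 3 and 5 members were higher. *Smc4*, *Ncapd2* and *Ncaph2* were higher under every alternative, whereas *Ncapg2* was lower in CB-like cells under those 3, with log2 differences of -1.16, -0.69 and -0.51, each called. *Ncaph* was also called lower without integration (-0.55) and at a resolution of 1 (-0.47), and *Ncapd3* without integration (-0.73). Without replicate 3 of either genotype, or with DESeq2, the *Ncapd3* call was lost (edgeR adjusted p = 0.0639 and 0.0971, DESeq2 adjusted p = 0.109).

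Outside the GC, condensin was compared between cells that were all called G1. Over the 992 naive or memory B-like and the 3725 GC B-like cells called G1, 4 members passed the low-count filter. *Ncapg* had 15 UMIs in the naive or memory B-like cells, fewer than the untested *Ncapd3* (24 UMIs) and *Ncapd2* (20 UMIs), and passed the filter only through its 512 UMIs in GC B-like cells. It was therefore bound to differ, and its values are a description (19.0% of all genes were higher in GC B-like cells). In naive or memory B-like cells its levels were 0, 1.41 and 1.57 CPM (*Smc3* wt/wt) and 9.84, 4.53 and 7.97 CPM (labelled *Smc3* wt/-). In GC B-like cells they were 25.1, 40.3 and 34.5 CPM and 40.6, 6.34 and 38.0 CPM in the same order. *Ncapg* was higher in GC B-like cells in each library, and the groups overlapped through replicate 2 labelled *Smc3* wt/- alone. *Smc2* (0.57, edgeR adjusted p = 0.0968), *Smc4* (-0.26, edgeR adjusted p = 0.102) and *Ncaph2* (0.23, edgeR adjusted p = 0.299) did not pass. *Smc4* was called lower in GC B-like cells without integration (-0.30), without thinning (-0.27) and without *Smc3* wt/wt replicate 1 (-0.32), and *Smc2* was called higher without a low-count filter (0.65) and without *Smc3* wt/wt replicate 3 (0.81).

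PB-like cells were compared with CB-like cells, both called G2/M, in the 5 libraries with at least 20 such cells. In PB-like cells *Ncapg2* was at 52.1 and 63.5 CPM (*Smc3* wt/wt replicates 2 and 3) and at 46.9, 67.4 and 59.4 CPM (labelled *Smc3* wt/-). Its mean was 57.0 CPM against 13.1 CPM in CB-like cells (TMM-scaled over all genes), which gave a log2 change of 1.96 ± 0.18 SE (edgeR adjusted p = 1.27e-07). *Ncapd3* was higher by 1.45 ± 0.24 SE and *Smc2* by 0.42 ± 0.11 SE, so that 3 members were higher where 30.4% of all genes were. *Smc4*, *Ncapd2* and *Ncaph* were lower by log2 changes of -0.44, -0.43 and -0.41, where 28.1% of all genes were lower, and *Ncapg* and *Ncaph2* did not pass. The lower calls depend on the clusters named CB-like, and that of *Ncaph* (edgeR adjusted p = 0.0492) was lost in 7 other settings. Without integration, with doublets kept or at a resolution of 1, *Smc4*, *Ncapg* and *Ncaph* were called higher in PB-like cells. The *Ncapd2* call was lost in these settings (-0.04, -0.14 and -0.18 in the same order), whereas *Ncapg2* and *Ncapd3* were higher under every alternative. The higher calls of *Ncapg2* and *Ncapd3* are also relative to cells of that name. In G2/M the PB-like levels of *Ncapg2* lay within or below the 64.8 to 78.0 CPM of cluster 2, which carries no CB-like name. Over all GC B-like cells called G2/M (6 libraries), *Ncapd3* was at 29.8 to 54.8 CPM, beside 31.6 to 61.0 CPM in PB-like cells (5 libraries). *Ncapg2* was at 37.1 to 52.5 CPM there, beside 46.9 to 67.4 CPM in PB-like cells, and neither difference was tested.

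A G2/M call did not go with high condensin levels in PC-like cells. In the 228 such cells of replicate 2 labelled *Smc3* wt/-, *Smc2* was at 3.78 CPM (4 UMIs), *Ncaph* had 0 UMIs and *Ncapg2* was at 34.0 CPM.

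*Ncapg2* also stood apart from the other members in PC-like cells called G1, a comparison that was not tested across libraries. In replicate 2 labelled *Smc3* wt/-, which held 1155 PC-like cells called G1, *Ncapg2* was at 36.7 CPM (198 UMIs, exact 95% Poisson interval 31.8 to 42.2, counting error only). In the same library it was at 55.2 CPM in 248 PB-like cells (interval 42.8 to 70.1), 6.34 CPM in GC B-like cells (1.31 to 18.5) and 3.02 CPM in naive or memory B-like cells (0.82 to 7.73). T cell-like cells of this library called G1 had 0 *Ncapg2* UMIs, with an upper bound of 28.8 CPM. In the same PC-like cells *Smc2* was at 7.42 CPM (5.30 to 10.1) and *Smc4* at 49.3 CPM (43.6 to 55.6), against 40.1 CPM (24.2 to 62.7) and 84.5 CPM (60.4 to 115) in GC B-like cells of this library. For the other 5 members the intervals of these cells overlapped.

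A second library, replicate 3 labelled *Smc3* wt/-, had 23 PB-like cells called G1, in which *Ncapg2* was at 42.4 CPM (6 UMIs, interval 15.6 to 92.3) against 8.62 CPM in its GC B-like cells. *Ncapd3* was likewise at 35.3 CPM in these 23 cells (5 UMIs, interval 11.5 to 82.5) against 5.32 CPM in GC B-like cells, whereas in the PB-like cells of replicate 2 it was at 3.29 CPM (0.90 to 8.44). In all PC-like cells, the second library with at least 20 such cells was *Smc3* wt/wt replicate 3 (22 cells, 8 of them called G2/M), where *Ncapg2* was at 50.8 CPM on 6 UMIs and other members were not low, with *Smc4* at 144 CPM and *Ncaph2* at 50.8 CPM. *Ncapg2* lies 395.3 kb from the nearest annotated immunoglobulin heavy chain gene on chromosome 12. Over cells of all phases, *Ncapg2* had a median of 43.7 CPM in PC-like and 45.2 CPM in GC B-like cells, and its neighbors *Zfp386* and *Esyt2* had 8.79 and 8.17 CPM in PC-like and 21.4 and 10.6 CPM in GC B-like cells. The neighbors were not examined in G1 alone.

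**Figure D4:**
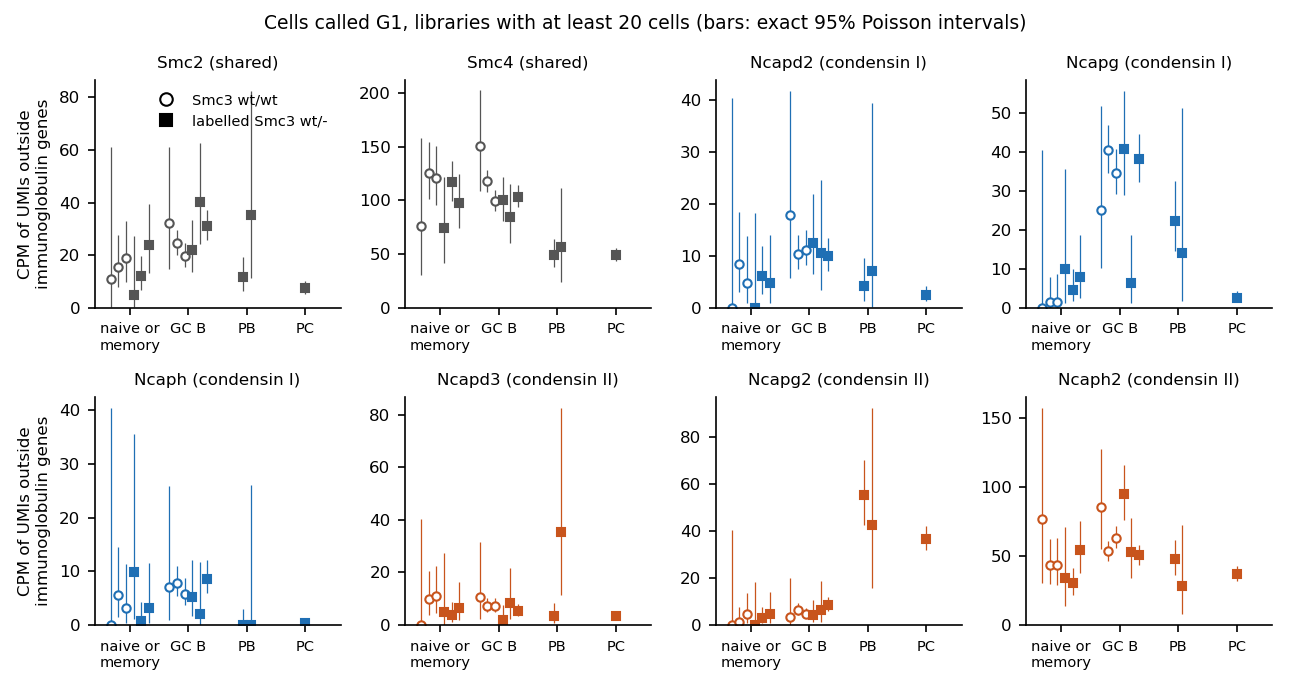
Condensin subunits in cells called G1, in naive or memory B-like, GC B-like, PB-like and PC-like cells, 1 point per library with at least 20 cells (open circles *Smc3* wt/wt, filled squares labelled *Smc3* wt/-), with exact 95% Poisson intervals and linear axes from 0. The PB-like and PC-like points come from replicates 2 and 3 labelled *Smc3* wt/-, and all 3 *Ncapg2* points there, at 36.7 to 55.2 CPM, lie above every GC B-like library. The *Ncapd3* point of PB-like cells in replicate 3 also does, at 35.3 CPM on 5 UMIs.

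The genes most like each member were sought over 34 sums of library, B lineage class and phase, among 6849 genes, by Pearson's r of log2(CPM + 1). The sums share libraries and depth, so r is a description. *Smc2* was most like *Top2a* (r = 0.982), *Smc4* like *Ttk* (0.975), *Ncapd2* like *Cdca2* (0.976) and *Ncaph* like *Depdc1a* (0.968), which are genes of chromosome segregation or mitosis. *Ncapg* was most like *Elof1* (0.951), *Ncapd3* like *Ccdc34* (0.941) and *Ncaph2* like *Alyref* (0.943). The closest gene to *Ncapg2* was *Uck2*, at a lower r of 0.888. *Ncapg2* was also the member least like the other subunits over these sums (r = 0.524 with *Ncaph* to 0.766 with *Ncapd3*). Over the 18 sums of GC B-like cells alone its r with the others was 0.779 to 0.960.

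The question of genotype was asked in 5 classes of cells. None of the 8 members passed the test in GC B-like cells, GC B-like cells called G2/M, CB-like cells, CC-like cells or plasma-lineage cells (PB-like and PC-like together). By edgeR, the share of all genes called was 0 in each class. The plasma-lineage class was 353 PB-like and 1393 PC-like cells in replicate 2 labelled *Smc3* wt/-, but 22 to 68 PB-like and 12 to 22 PC-like cells in the other libraries. At an unadjusted p under 0.05 there were 0 members in each class and 177, 197, 266, 150 and 237 genes, and DESeq2 called 0 members and 2, 1, 0, 0 and 0 genes in the same order.

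In GC B-like cells *Ncapd2* was at 107, 75.7 and 80.9 CPM (*Smc3* wt/wt) and at 82.1, 52.7 and 74.6 CPM (labelled *Smc3* wt/-). The groups overlapped, and the log2 difference was -0.28 (95% interval -0.63 to 0.08, edgeR adjusted p = 1). In the cells called G2/M same-numbered libraries were taken as pairs, from low correlations and with no pairing stated in the labels. There *Ncapd2* was at 137, 101 and 106 CPM against 104, 74.2 and 96.6 CPM. It was lower in 3 of 3 pairs and was not called with the replicate as a block. *Ncaph* had 45.7, 51.2 and 49.5 CPM against 51.2, 23.7 and 48.6 CPM, with the low value in replicate 2 (log2 difference -0.20, 95% interval -0.74 to 0.33). *Smc4*, at 428, 448 and 474 CPM against 417, 286 and 441 CPM, was also lowest in that library (log2 difference -0.21, 95% interval -0.62 to 0.19). In G2/M *Smc4* was at 556, 607 and 624 CPM against 538, 403 and 580 CPM, also lower in 3 of 3 pairs and not called. The same held for *Ncaph2* in G2/M, at 163, 122 and 128 CPM against 161, 93.7 and 121 CPM. In all GC B-like cells the 5 members besides *Ncapd2*, *Ncaph* and *Smc4* lay between -0.18 (*Ncapg*) and 0.05 (*Ncapd3*). The 95% intervals of all 8 included 0.

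No member passed the test of a different change from G1 to G2/M between genotypes, where 0.0394% of all genes did (4 genes by edgeR with 325 below 0.05 unadjusted, and 0 by DESeq2). *Smc2* came nearest (log2 difference of the change -0.48, 95% interval -0.87 to -0.10, edgeR adjusted p = 1). Its G1 to G2/M change on the log2(CPM + 1) scale was 3.21, 3.53 and 3.73 (*Smc3* wt/wt) and 3.64, 2.55 and 3.13 (labelled *Smc3* wt/-), and the groups overlapped.

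**Figure D5:**
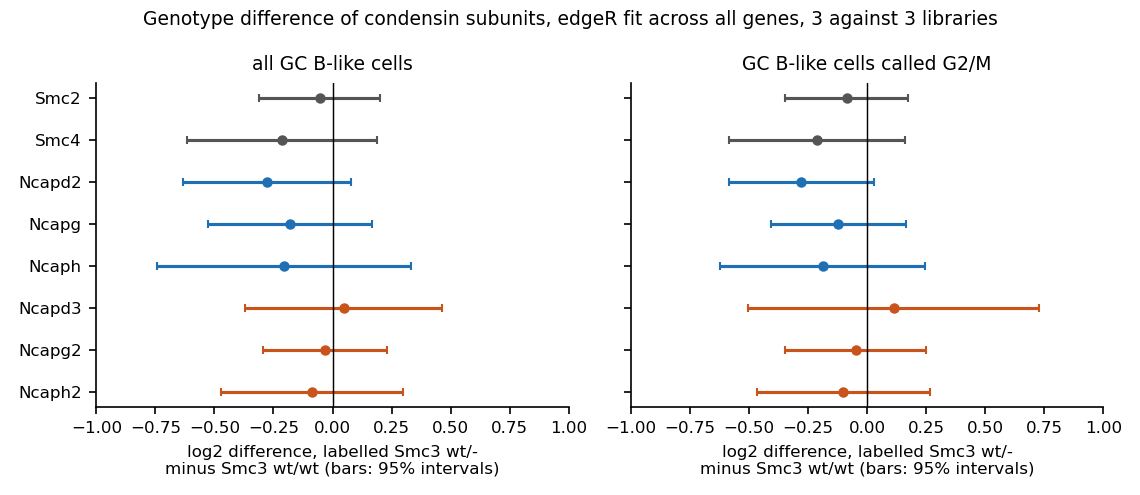
Log2 difference of the condensin subunits between the libraries labelled *Smc3* wt/- and the *Smc3* wt/wt libraries (3 against 3), in all GC B-like cells (left) and in those called G2/M (right), with 95% intervals from the edgeR fit. Every interval includes 0.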

How the data were processed

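The deposited counts were whole UMI counts per gene and cell barcode. The authors prepared 10x Genomics 3′ libraries and made 1 matrix per library with Cell Ranger on mm10, per the labels. Of 22939 barcodes, 21568 had at least 500 genes and no more than 10% mitochondrial UMIs, and 721 with the highest Scrublet scores (3.34%) were removed as doublets. Cells were clustered in Seurat 5.3.0 with reciprocal PCA integration (30 components, resolution 0.5). Condensin, partner, cohesin and SMC5/6 genes were left out of clustering and of the phase lists (43 S and 46 G2/M genes). Phases were called after thinning to 2000 UMIs, which leaves shallower cells without a phase. UMIs were summed per library and class and tested with edgeR 4.0.16 (TMM, filterByExpr, quasi-likelihood test, Benjamini-Hochberg threshold 0.05), with library as a block within libraries and no covariate between genotypes, and each library needed at least 20 cells per class (10 for PB-like cells). The fits were tested on simulated data. Paralogs were compared with exact sign-flip tests on log2(CPM + 1).

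The members, gene lists and comparisons were chosen with earlier results of these data known. All 8 members were to be named, with up to 4 partner genes and the 3 most similar genes of each member (the first is given), among genes with a mean of at least 10 CPM. The labels give replicate numbers but state no pairing. Deviations of same-numbered libraries of the 2 genotypes correlated weakly in GC B-like cells called G2/M (0.233, 0.107 and 0.126). The numbers were taken to pair libraries there on these values alone. Elsewhere at least 1 of the 3 correlations was under 0.1. Alternatives were DESeq2 1.42.0, RLE factors, no low-count filter, no integration, a resolution of 1, doublets kept, phases without thinning, a pseudocount of 10, a replicate block, sex as a covariate and leaving out each library. Leaving out immunoglobulin genes and the comparison of G2/M with S were alternatives or tests chosen after seeing the data. Depth was lowest in *Smc3* wt/wt replicate 1. Motifs were searched in RefSeq promoters, and gene positions came from GENCODE (GRCm38).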

Additional observations from a re-analysis of the deposited data

Results flagged for a closer look

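In each set of 6 library values, the highest or lowest was compared with its nearest neighbor by Dixon's criterion (gap over range above the 95% critical value), which chance passes in about 1 of 20 sets. Of 40 sets, 8 passed, and 7 of these were replicate 2 labelled *Smc3* wt/-, whose 472 GC B-like cells had low GC marker levels. Its *Ncapg* change from G1 to G2/M was 4.13 on the log2(CPM + 1) scale, against 1.68 to 2.52 in the others, and rested on 3 UMIs in G1. From S to G2/M its *Ncapg* change was 1.18 (others 0.35 to 0.58) and its *Smc2* change 0.18 (others 0.53 to 0.67). The difference of *Ncapg* from *Ncapg2* was 1.75 from G1 to G2/M (others -1.56 to -0.50) and 1.82 from S to G2/M (others 0.54 to 0.89). Its *Smc3* level was 117 CPM in GC B-like cells (others 154 to 171) and 60.3 CPM over all kept cells (others 149 to 165). The remaining set was the *Smc4* difference between CB-like and CC-like cells, 1.10 in *Smc3* wt/wt replicate 1 against 1.45 to 1.63. The part of cell composition and depth in these values was not tested.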

How the results depend on the processing

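All 8 members were higher in S and in G2/M than in G1 under every alternative run, and the 7 calls from S to G2/M also held under each. No member was called between genotypes, or in the difference of the G1 to G2/M change between genotypes, under any alternative. With the replicate number as a replicate block, 0 members were called in all 5 classes, so the pairing changed no call. Over all genes, the 0 genes called between genotypes became 3 in CB-like cells with the block or without replicate 1 labelled *Smc3* wt/-, 27 in CB-like and 4 in plasma-lineage cells without a low-count filter, and 1 in CB-like cells without integration, with doublets kept or without replicate 2 labelled *Smc3* wt/- (1 also in plasma-lineage cells without the latter), and the 4 genes of the difference between genotypes became 0 to 21 over the alternatives. Without integration, at a resolution of 1 and with doublets kept, where the CB-like name covered other cells, CB-like against CC-like values turned to -0.14 and -0.015 for *Smc2* (first 2 settings), to -0.55, -0.47 and -0.19 for *Ncaph*, to -0.73, -0.38 and -0.0059 for *Ncapd3*, and to -1.16, -0.69 and -0.51 for *Ncapg2*. In the same 3 settings PB-like against CB-like values turned to 0.59, 0.43 and 0.51 for *Smc4*, 0.74, 0.66 and 0.55 for *Ncapg*, 1.53, 1.35 and 1.39 for *Ncaph*, and 0.25, 0.12 and 0.086 for *Ncaph2*. Uncalled values near 0 there also changed sign, to 0.12 for *Ncapg* and 0.016 for *Ncaph2* without thinning, and *Ncapg* ranged from -0.20 to 0.040 with a library left out. Without *Smc3* wt/wt replicate 2, the *Smc2* call in PB-like cells was lost (0.31, edgeR adjusted p = 0.0587). In naive or memory B-like cells, with *Ncapg* counted throughout although it passed the filter through GC B-like cells only, 3 of 5 tested members were called without integration and 3 of 5 without thinning (2 higher and *Smc4* lower in each, and *Smc2* at -0.14 in the latter), 2 without a low-count filter, and 1 to 2 with a library left out (2 without *Smc3* wt/wt replicate 1 or 3). Between genotypes in GC B-like cells, uncalled values crossed 0, from -0.056 to 0.18 for *Ncapd3*, from -0.095 to 0.023 for *Ncapg2* and from -0.25 to 0.033 for *Ncaph2* with a library left out, and *Ncapg2* was at 0.003 without integration. With a pseudocount of 10, 2 of 3 pairs passed from G1 to G2/M (the *Ncapd2* and *Ncaph* pairs) and the *Ncapg* pair turned to 0.13. From S to G2/M, 0 to 0 pairs passed with a library left out, since 5 libraries allow no p under 0.0625, and all 3 stayed positive in the mean. Depth limits the G1 values, where 5 members had 0 UMIs in the naive or memory B-like cells of *Smc3* wt/wt replicate 1, and *Ncaph* and *Ncapg2* had as few as 1 UMI per library in GC B-like cells.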
